A study of Mus musculus with 4 samples.

Results

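The 9 genes described here encode transcription factors of the trophoblast, the outer lineage of the mouse embryo, and were chosen by name: Cdx2, Eomes, Elf5, Tfap2c, Gata2, Gata3, Hand1, Ascl2 and Msx1. They are 9 of the 25437 genes named in the count tables. Each was followed in 4 single-cell RNA libraries, with 1 library per stage, made from pooled whole embryos of the wild-type strain B6C3F1/J. The libraries carry the names EDG7.5 and EDG9.5, then Reactivated, then E5.5, and the stage label of Reactivated reads EDG9.5+30h E2. For each of the first 3, about 200 to 250 blastocysts were flushed from the uterus, while 50 embryos taken from implantation sites went into E5.5. The series title names embryonic diapause, the pause that a blastocyst can enter before it implants, and the E4.5 stage that its design also names was not analysed here.

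In the mouse blastocyst the outer cells form the trophectoderm, a thin epithelium that attaches to the uterus. After implantation the trophectoderm next to the epiblast becomes the extraembryonic ectoderm, which holds the trophoblast stem cells, and its outer cells form the ectoplacental cone and the giant cells that invade the uterus. Cdx2, Eomes, Elf5 and Tfap2c are known for setting up or keeping the stem state. Gata2 and Gata3 are zinc finger factors of trophectoderm and giant cells, Hand1 is a basic helix-loop-helix factor needed for giant cells, and Ascl2 is an imprinted factor of the same class that keeps ectoplacental cone precursors. Msx1 is a homeobox repressor, also known from the epithelium of the uterus.

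The tables held 1726 barcodes for EDG7.5, 2566 for EDG9.5, 677 for Reactivated and 9560 for E5.5, with 9270833 to 87507141 unique molecular identifiers (UMIs, counted RNA molecules) per library. Pairs of libraries shared 1 to 27 barcodes. Cells were clustered within each library without the 9 genes, and clusters were named from other markers. This gave 588 trophoblast cells for EDG7.5 and 950 in EDG9.5, then 163 in Reactivated and 3627 in E5.5, with median depths between 3833.5 UMIs per cell (EDG9.5) and 11413 (Reactivated). The trophoblast markers, led by the keratin Krt18 or by Id2, summed to 5771 to 12568.5 counts per 1000000 UMIs (CPM) in trophoblast of the 4 libraries, against 243 to 1638 CPM in epiblast and 793 to 1183 CPM in endoderm. The same markers gave the clusters their names, so this contrast follows from the naming. In trophoblast the markers of decidual stroma summed to at most 1.66 CPM, those of immune cells to at most 5.53, those of red blood cells to at most 1.12 and those of endothelium to at most 42.7 CPM. The uterine epithelium markers summed to 234 CPM in EDG7.5 and 185 in EDG9.5, then 268 in Reactivated and 46.4 in E5.5 trophoblast, with Wfdc2 the highest of them in each.

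All levels below are CPM of UMIs summed over the cells of 1 lineage in 1 library, and bracketed ranges are 95% exact intervals of counting error only. With 1 library per stage there is no replicate check, no test and no p-value, and a stage cannot be told apart from its collection or its library. Log2 ratios add 10 CPM to both sides, which pulls the ratios of low genes towards 0, and a gene is called past 2-fold at a log2 ratio of 1 or -1. A gene entered a comparison with at least 10 UMIs in the 2 sums.

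Within each library, most of the 9 factors were much higher in trophoblast than in the other lineages. Against epiblast, the log2 ratio passed 2-fold upward for 6 of 8 factors compared in EDG7.5, where 7.19% of all genes did so, for 6 of 9 in EDG9.5 (7.07% of all genes), for 9 of 9 in Reactivated (8.31%) and for 8 of 9 in E5.5 (4.73%), with Msx1 the exception. Only Ascl2 was past 2-fold lower in trophoblast than in epiblast, in EDG7.5 (17.4% of all genes were) and EDG9.5 (16.9%). None of the 9 was in Reactivated (13.2% of all genes) or E5.5 (4.8%). Against endoderm, the upward counts were 7 of 7 in EDG7.5 (6.25% of all genes), 7 of 9 in EDG9.5 (5.77%), 9 of 9 in Reactivated (5.61%) and 8 of 9 in E5.5 (3.68%). No factor was past 2-fold lower in trophoblast than in endoderm, where 13.7% of all genes were in EDG7.5 and 11.9% in EDG9.5, then 10.6% in Reactivated and 6.84% in E5.5. The median log2 ratio of the factors compared was at least 3.15 in each of these 8 comparisons, and that of all genes -0.29 to 0.01. The genes were picked as trophoblast factors, so this describes how well the label holds in these libraries.

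**Figure D1:**
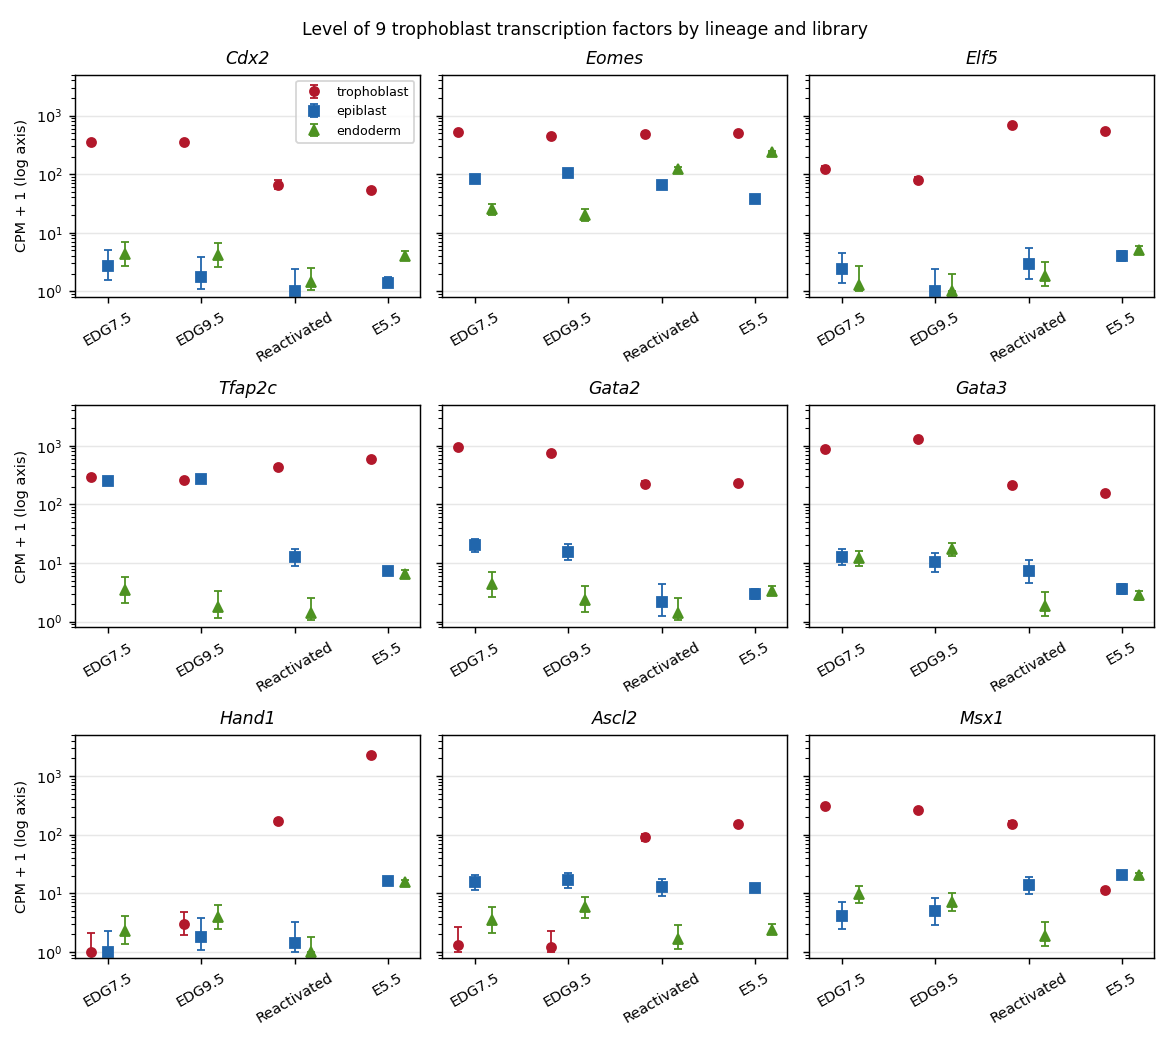
Level of each factor in trophoblast, epiblast and endoderm of the 4 libraries, as CPM + 1 on a log axis; points are sums over cells, bars are 95% Poisson intervals. Hand1 and Ascl2 are near the floor in EDG7.5 and EDG9.5 trophoblast, Tfap2c is at like levels in trophoblast and epiblast of those libraries, and Eomes is higher in endoderm of Reactivated and E5.5.

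Between the 2 EDG libraries, EDG9.5 and EDG7.5, the trophoblast factors were close. None of the 7 compared was past 2-fold in either direction, where 0.129% of all genes were higher and 0.0774% lower. Gata3 was 1.48-fold (1.41 to 1.54) higher in EDG9.5 and Elf5 1.57-fold (1.36 to 1.81) lower. Hand1, with 9 UMIs in EDG9.5 and 0 in EDG7.5, and Ascl2, with 1 UMI in each, had too few to compare.

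Between Reactivated and EDG9.5 the set split. Elf5, Hand1 and Ascl2 were past 2-fold higher, where 9.85% of all genes were, and Cdx2, Gata2 and Gata3 were past 2-fold lower, where 11.4% were. The median log2 ratio of the 9 was 0.12, beside -0.08 over 11520 genes. The remaining Eomes, Tfap2c and Msx1 lay inside 2-fold. The mitochondrial share of UMIs moved with stage: its median over trophoblast cells was 9.94% in EDG7.5 and 8.72% in EDG9.5, then 6.44% in Reactivated and 4.06% in E5.5. With only cells under 10% kept, the counts were again 3 higher and 3 lower for Reactivated over EDG9.5, and 4 and 4 for E5.5 over EDG9.5.

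Between E5.5 and EDG9.5 the same 6 factors were past 2-fold in the same directions, and Tfap2c was added to the higher side and Msx1 to the lower. That made 4 of 9 higher, where 11.4% of all genes were, and 4 of 9 lower, where 8.24% were, with Eomes alone inside 2-fold. With cells thinned to 1000 UMIs, the Tfap2c log2 ratio was 0.97 in place of 1.16, just inside 2-fold. Between E5.5 and Reactivated only Hand1 was past 2-fold higher (4.9% of all genes) and only Msx1 lower (3.02%), while Ascl2, at 0.69, was at 1.09 after the same thinning. These comparisons share libraries, so their counts are not separate pieces of evidence.

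**Figure D2:**
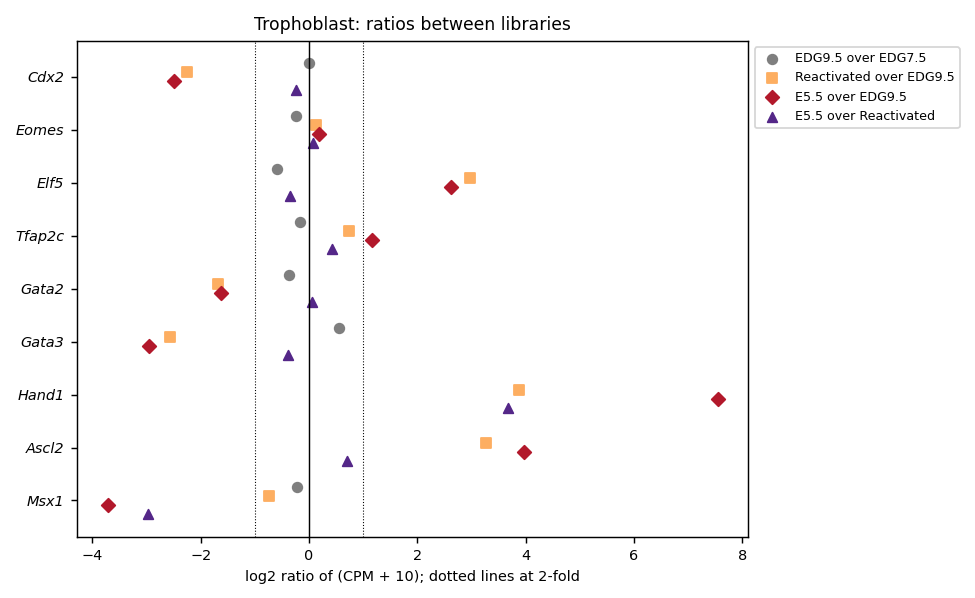
Log2 ratio of (CPM + 10) of each factor in trophoblast for 4 pairs of libraries, with dotted lines at 2-fold; Hand1 and Ascl2 are not drawn for EDG9.5 over EDG7.5, where they had under 10 UMIs. Elf5, Hand1 and Ascl2 lie to the right and Cdx2, Gata2 and Gata3 to the left for both Reactivated and E5.5 over EDG9.5.

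Cdx2, the homeobox gene that specifies trophectoderm, was lower in Reactivated and E5.5 trophoblast than in the EDG libraries. Its trophoblast level was 346 CPM in EDG7.5 and 346 in EDG9.5, then 64.8 in Reactivated and 53.5 in E5.5. The EDG libraries did not differ beyond counting error (interval of the ratio 0.927 to 1.08), and both later libraries lay far below them. The level was 5.35-fold (4.47 to 6.45) lower in Reactivated than in EDG9.5 and 6.48-fold (6.05 to 6.94) lower in E5.5 than in EDG9.5. In epiblast and endoderm Cdx2 was at most 3.37 CPM in every library.

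Gata2 and Gata3, zinc finger factors that act in trophectoderm and in placental hormone-producing giant cells, were lower in the same libraries. In trophoblast Gata2 had 966 CPM in EDG7.5 and 746 in EDG9.5, then 225 in Reactivated and 234 in E5.5. Gata3 had 869 CPM in EDG7.5 and 1283 in EDG9.5, then 209 in Reactivated and 157 in E5.5. Both later libraries were well below both EDG ones for each gene. Gata2 was 3.32-fold (3.01 to 3.68) lower and Gata3 6.12-fold (5.54 to 6.78) lower in Reactivated than in EDG9.5. For Gata2 the 2 later libraries did not differ beyond counting error (E5.5 over Reactivated 1.04, 0.947 to 1.15), while Gata3 was 1.33-fold (1.20 to 1.47) lower in E5.5 than in Reactivated. Gata3 shares exons with an antisense gene (Gm13256) and with 9230102O04Rik, and the strand setting of the counting is not given in the sources used here, so reads of these genes cannot be told apart.

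Elf5, an ETS factor of extraembryonic ectoderm and trophoblast stem cells, differed in the other direction. Its trophoblast level was 123 CPM in EDG7.5 and 78.7 in EDG9.5, then 688 in Reactivated and 536 in E5.5. It was 8.74-fold (7.77 to 9.85) higher in Reactivated than in EDG9.5 and 6.81-fold (6.13 to 7.59) higher in E5.5 than in EDG9.5. Between the 2 later libraries it was 1.28-fold (1.21 to 1.35) lower in E5.5. Outside trophoblast Elf5 was at most 4.14 CPM, and EDG9.5 epiblast and endoderm had 0 UMIs, so that trophoblast was at least 66.7-fold higher than epiblast and at least 98.6-fold higher than endoderm there, with 3 counts over the class standing in for 0.

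Eomes, a T-box factor that keeps trophoblast stem cells and also acts in visceral endoderm, was nearly level in trophoblast. It had 524 CPM in EDG7.5 and 444 in EDG9.5, then 484 in Reactivated and 507 in E5.5. The E5.5 level was 1.14-fold (1.09 to 1.20) that of EDG9.5, and E5.5 and Reactivated did not differ beyond counting error (1.05, 0.982 to 1.12). Eomes shares exons with an antisense gene (Gm33460), so its reads cannot be told apart from that gene's.

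Outside trophoblast, Eomes was higher at E5.5 in one lineage and lower in the other. In endoderm it had 24.5 CPM in EDG7.5 and 19.2 in EDG9.5, then 122 in Reactivated and 238 in E5.5, which is 12.4-fold (9.86 to 15.9) higher in E5.5 than in EDG9.5. In epiblast it had 81.9 CPM in EDG7.5 and 103 in EDG9.5, then 65.3 in Reactivated and 36.0 in E5.5, which is 2.87-fold (2.49 to 3.30) lower in E5.5 than in EDG9.5. The endoderm level at E5.5 was uneven: cluster 9, led by Cer1, Sfrp1 and Lhx1, had 479 CPM (460 to 499; 574 cells) and cluster 12, led by Afp, had 470 CPM (453 to 487; 659 cells), against 92.7, 43.9 and 19.5 CPM in clusters 10, 13 and 8. In Reactivated the highest endoderm cluster, cluster 9 with Ttr, Lhx1 and Fgf8 among its top genes, had 237 CPM (203 to 274), against 131, 125 and 53.1 in the other 3. Cer1 and Lhx1 are known genes of the anterior visceral endoderm.

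Tfap2c, which encodes the AP-2 gamma factor of trophoblast and also of naive pluripotent and germ cells, was shared by trophoblast and epiblast in the EDG libraries. Trophoblast had 292 CPM in EDG7.5 and 259.7 in EDG9.5, then 440.0 in Reactivated and 591 in E5.5. Epiblast had 254 CPM in EDG7.5 and 272 in EDG9.5, then 11.7 in Reactivated and 6.26 in E5.5. The lineages were close in the EDG libraries and far apart in the later ones. In EDG7.5 trophoblast was 1.15-fold (1.05 to 1.27) above epiblast, in EDG9.5 the 2 lineages did not differ beyond counting error (trophoblast over epiblast 0.953, 0.867 to 1.05), and in Reactivated the ratio was 37.7 (26.2 to 56.2). Epiblast Tfap2c was 23.4-fold (16.2 to 34.9) lower in Reactivated than in EDG9.5, while trophoblast Tfap2c was 1.69-fold (1.55 to 1.85) higher. Endoderm held at most 5.61 CPM in any library.

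The epiblast level in the EDG libraries was not even across clusters. In EDG7.5 the epiblast cluster led by cell division genes such as Cdk1 and Ccnb1 had 120.3 CPM of Tfap2c (96.3 to 148), against 299 (276 to 323) in the other cluster. In EDG9.5 the cluster with Cenpf and Mki67 among its top genes had 130.3 CPM (104 to 161), against 322 (297 to 348). Of the 206 Reactivated epiblast cells, 91 form a cluster with 2 UMIs of Tfap2c, and the other 115 cells had 28 UMIs or 21.2 CPM (14.1 to 30.7). The 91-cell cluster has 3 decidual stroma genes among its top 10, of which 160 of 162 UMIs of Col3a1 come from 1 cell, and all 9 factors stayed past 2-fold higher in Reactivated trophoblast when epiblast was taken without it, an alternative chosen after seeing the data.

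Hand1, the basic helix-loop-helix factor of giant cells, had the widest range. In trophoblast it had 0 UMIs in EDG7.5 (upper limit 0.910 CPM from 3 counts), 9 UMIs in EDG9.5, 167 CPM in Reactivated and 2240.2 CPM in E5.5. Of the 9 UMIs in EDG9.5, 8 were in 1 cell, and all lay in a cluster of 52 cells led by Csta and Sct. Reactivated was 83.3-fold (43.4 to 184) and E5.5 1119-fold (589.7 to 2448) above EDG9.5, and E5.5 was 13.4-fold (12.1 to 15.0) above Reactivated. The 332 UMIs of Reactivated lay in 37 of 163 trophoblast cells, with 74 in 1 cell. The Reactivated level is thus carried by a minority of cells, and the intervals do not cover this spread between cells.

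Ascl2 was likewise near 0 in the EDG libraries. Trophoblast had 1 UMI each in EDG7.5 and EDG9.5, against 88.9 CPM in Reactivated and 150.0 CPM in E5.5. The ratio of Reactivated over EDG9.5 was 399.8, with a wide interval (70.8 to 15881) because 1 UMI stands below it. Between E5.5 and Reactivated the difference was 1.69-fold (1.45 to 1.97). The 177 UMIs of Reactivated lay in 45 of 163 trophoblast cells, with 30 in 1 cell, a spread that the intervals do not cover. Epiblast held a low and level amount in all 4 libraries, between 11.2 and 15.7 CPM. Ascl2 was lower in trophoblast than in epiblast in EDG7.5, with 0.303 CPM in trophoblast and 14.4 in epiblast, and in EDG9.5, with 0.222 in trophoblast and 15.7 in epiblast.

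Msx1, the homeobox repressor, was high in the EDG libraries and lowest at E5.5. Trophoblast had 303 CPM in EDG7.5 and 257 in EDG9.5, then 149.7 in Reactivated and 10.3 in E5.5. It was 1.72-fold (1.51 to 1.96) lower in Reactivated than in EDG9.5 and lower in E5.5 than in EDG9.5 by a factor of 22.1 to 28.3 (log2 ratio -3.72). At E5.5 trophoblast lay below both other lineages, with 10.3 CPM (9.22 to 11.4), against 19.6 (17.9 to 21.5) in epiblast and 19.4 (17.8 to 21.1) in endoderm. The uterine epithelium markers given above summed to 234 CPM in EDG7.5 and 185 in EDG9.5 trophoblast, then 268 in Reactivated and 46.4 in E5.5. They were thus highest in Reactivated, where Msx1 was below both EDG libraries, and lowest in E5.5. Their part in the Msx1 levels was not tested.

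For 4 of the 6 factors past 2-fold between Reactivated and EDG9.5, a pair from each direction, the bases before the start site are shown to set the letters of the pair side by side; Gata2 is described in words after them. The windows are the 250 bases upstream of the RefSeq start on GRCm38.p6, read 5′ to 3′ along the gene, and 7 of the 9 factors had an entry; Hand1 and Tfap2c had none. Capitals mark matches on either strand to the GATA motif AGATAA, the AP-2 motif GCCNNNGGC, the E-box CANNTG that basic helix-loop-helix factors bind, the TEAD motif GGAATG and the CDX motif TTTATG, and no 2 matches of different motifs overlap. The first pair was lower in Reactivated and E5.5 than in EDG9.5, Cdx2 at chr5:147307250-147307499, minus strand, and Gata3 at chr2:9878601-9878850, minus strand.
Cdx2: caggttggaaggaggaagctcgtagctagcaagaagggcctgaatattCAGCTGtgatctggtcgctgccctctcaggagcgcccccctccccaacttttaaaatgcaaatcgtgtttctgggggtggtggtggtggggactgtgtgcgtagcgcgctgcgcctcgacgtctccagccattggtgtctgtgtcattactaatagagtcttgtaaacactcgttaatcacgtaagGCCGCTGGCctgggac
Gata3: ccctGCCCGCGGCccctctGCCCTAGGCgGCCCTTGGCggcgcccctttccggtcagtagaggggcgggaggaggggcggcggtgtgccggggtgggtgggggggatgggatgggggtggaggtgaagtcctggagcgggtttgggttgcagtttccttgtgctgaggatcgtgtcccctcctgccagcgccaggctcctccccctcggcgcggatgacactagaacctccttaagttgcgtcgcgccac
The second pair was higher in Reactivated and E5.5, Elf5 at chr2:103411848-103412097, plus strand, the upstream one of its 2 listed starts, and Ascl2 at chr7:142969265-142969514, minus strand.
Elf5: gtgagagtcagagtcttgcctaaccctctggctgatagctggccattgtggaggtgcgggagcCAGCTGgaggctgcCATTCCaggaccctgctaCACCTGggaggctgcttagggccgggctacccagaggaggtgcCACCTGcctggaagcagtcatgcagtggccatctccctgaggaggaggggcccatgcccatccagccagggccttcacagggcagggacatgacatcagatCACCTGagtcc
Ascl2: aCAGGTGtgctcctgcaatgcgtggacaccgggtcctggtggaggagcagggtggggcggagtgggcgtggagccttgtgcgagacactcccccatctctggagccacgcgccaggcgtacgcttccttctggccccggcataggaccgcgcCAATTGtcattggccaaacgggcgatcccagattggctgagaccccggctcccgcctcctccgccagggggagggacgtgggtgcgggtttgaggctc
Cdx2 held 1 AP-2 match and 1 E-box, Gata3 3 AP-2 matches, Elf5 4 E-boxes and 1 TEAD match, and Ascl2 2 E-boxes. Of 32851 promoter windows of the same length, 13.73% held the AP-2 letters, 66.22% an E-box, 12.64% the TEAD letters, 10.76% the CDX letters and 9.988% the GATA letters. Neither GATA nor CDX letters were found in the 4 windows printed, while the window of the second Elf5 start, chr2:103423818-103424067, held 1 CDX match and 1 E-box. Gata2, also past 2-fold lower, has 2 listed starts: the upstream window, chr6:88193641-88193890, held no match to any of the 5 motifs, and the other, chr6:88198414-88198663, held 1 AP-2 and 1 TEAD match. A match is a description of letters and not a bound site.

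By the GENCODE annotation of the same assembly the genes lie at chr5:147300805-147307270 (Cdx2), chr9:118478212-118486132 (Eomes), chr2:103411688-103450989 (Elf5), chr2:172549593-172558622 (Tfap2c), chr6:88193891-88207032 (Gata2), chr2:9857078-9890034 (Gata3), chr11:57828705-57832818 (Hand1), chr7:142966829-142969264 (Ascl2) and chr5:37820485-37824583 (Msx1). The files give 1 count per gene and barcode, so no exon or isoform is resolved.

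The share of trophoblast cells with at least 1 UMI depends on depth, so it was also taken at equal depth. Unthinned, Elf5 was detected in 41.2% of them in EDG7.5 and 24.0% in EDG9.5, then 95.1% in Reactivated and 95.3% in E5.5. Hand1 was detected in 0 of the 588 cells of EDG7.5 and 0.211% of those of EDG9.5, then 22.7% in Reactivated and 95.6% in E5.5. After each cell was thinned to 1000 UMIs, Elf5 was detected in 11.2% (8.79 to 14.1) in EDG7.5 and 5.68% (4.30 to 7.35) in EDG9.5, then 43.6% (35.8 to 51.5) in Reactivated, with 41.7% (40.1 to 43.3) in E5.5. Elf5 was thus in a like share of cells in both later libraries, while Hand1 was not: thinned, it was in 65.3% (63.7 to 66.9) of cells in E5.5 and 6.13% (2.98 to 11.0) in Reactivated. No trophoblast cell was shallower than 1000 UMIs.

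Thinned Cdx2 was detected in 28.7% of cells of EDG7.5 and 29.5% in EDG9.5, then 9.20% in Reactivated and 4.96% in E5.5. Thinned Gata3 was in 50.2% in EDG7.5 and 67.2% in EDG9.5, then 19.6% in Reactivated and 13.8% in E5.5. Both were in fewer cells of the later libraries, with intervals that do not overlap those of the EDG ones. The intervals of these shares are over cells of 1 library, which are not replicates of a stage. Their overlap therefore describes the libraries and is no comparison of stages. For thinned Eomes the shares were 38.1% (34.2 to 42.2) in EDG7.5 and 33.1% (30.1 to 36.1) in EDG9.5, then 44.2% (36.4 to 52.1) in Reactivated, with 37.4% (35.8 to 39.0) in E5.5, and only the intervals of EDG9.5 and Reactivated did not overlap. Thinned Msx1 was in 20.6% in EDG7.5 and 19.8% in EDG9.5, then 14.1% in Reactivated and 1.02% in E5.5.

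**Figure D3:**
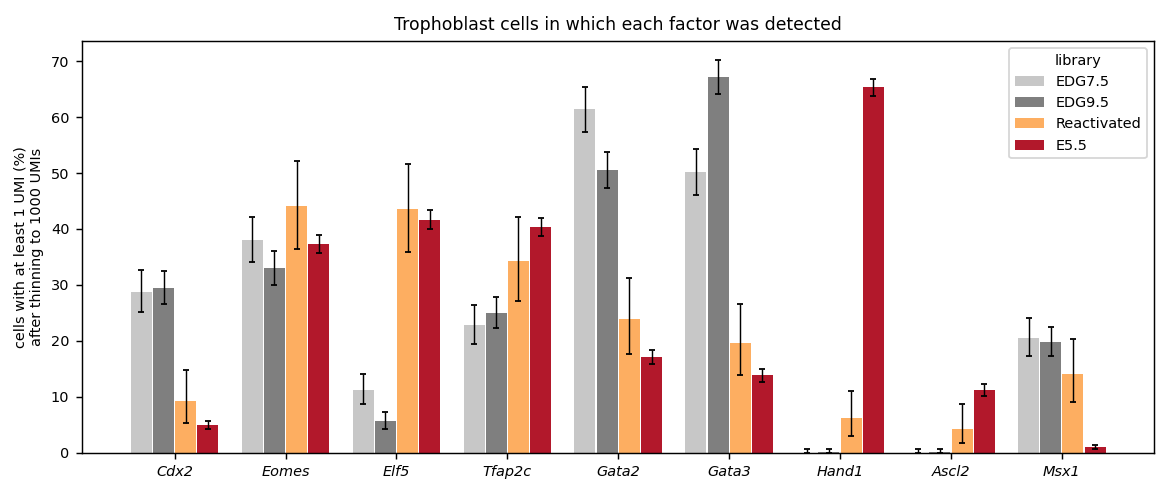
Share of trophoblast cells with at least 1 UMI of each factor, in percent, after every cell was thinned to 1000 UMIs; bars are the 4 libraries and lines are 95% Clopper-Pearson intervals. Hand1 reaches 65.3% in E5.5, against 6.13% in Reactivated, and Gata2 and Gata3 are detected in most cells only in the EDG libraries.

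Detection outside trophoblast can hold free RNA, doublets left in and low expression, which were not told apart. In E5.5, Hand1 was detected unthinned in 11.9% of epiblast cells (median 8663.5 UMIs) and 11.1% of endoderm cells (8743 UMIs), beside 95.6% of trophoblast cells (8744 UMIs). The epiblast level was 0.00563 to 0.0165 times the trophoblast level for 6 factors, Elf5, Hand1, Cdx2, Gata2, Tfap2c and Gata3, but 0.0709 times for Eomes, 0.0745 times for Ascl2 and 1.91 times for Msx1. The last 3 lie above the range of the 6 others. The Msx1 share in E5.5 trophoblast, 7.72%, was below that in epiblast (13.2%) and endoderm (11.5%). It was uneven within trophoblast and endoderm: among clusters of over 100 cells, 15.8% of cells in trophoblast cluster 3 and 20.8% in endoderm cluster 10 had Msx1, against 1.48% in trophoblast cluster 11 and 1.22% in endoderm cluster 9. How much of it is free RNA was not tested.

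Within the trophoblast of 1 library, the factors were uneven across clusters. In EDG7.5, Msx1 had 569 CPM in cluster 4 (309 cells), against 74.6 and 38.4 CPM in the other 2 clusters. In EDG9.5 it had 563 CPM in cluster 5 (393 cells) and 293 CPM in cluster 4 (52 cells), against 70.6 and 62.7 CPM in clusters 3 and 6. H19, Igf2 and Crip1 were among the top genes of cluster 4 of EDG7.5, and of cluster 5 of EDG9.5. Cdx2, Eomes, Tfap2c, Gata2 and Gata3 were above 200 CPM in all 7 EDG clusters, and Ascl2 was at most 1.36 CPM in them.

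In Reactivated trophoblast, Hand1 was highest in the clusters with the least Cdx2 and Msx1. Cluster 0 (47 cells) had 407 CPM of Hand1, 209 of Ascl2, 614 of Tfap2c and 28.7 of Cdx2. Cluster 2 (40 cells) had 0 UMIs of Hand1, 13.9 CPM of Ascl2, 239 of Tfap2c, 129 of Cdx2 and 287 of Msx1. Cluster 8 (33 cells) had 0 UMIs of Msx1, 133 CPM of Hand1 and 428 of Gata2, and Elf5 was between 559.6 and 851 CPM in all 4 clusters. The ectoplacental cone markers summed to 2528 CPM in cluster 0 and 3311 CPM in cluster 8, against 886 CPM in cluster 2 and 1027 CPM in cluster 3. Of the 163 cells thinned to 4000 UMIs, 27 had Hand1, 26 had Ascl2 and 13 had both, where 4.31 would have both if they were independent (ratio 3.02, 1.61 to 5.16). This pair had the highest ratio of all pairs in this library, and its ratio in E5.5 was 1.02. In E5.5 Hand1 was in 90.5% of cells at this depth, so no Hand1 pair could lie far above expectation there. The ratios of these libraries therefore cannot be compared. Cluster 0 held 81.0% of the Hand1 UMIs and 78.0% of the Ascl2 UMIs, and no ratio was taken inside single Reactivated clusters.

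At E5.5 the clusters were named from markers other than the 9 factors: clusters 3, 4 and 5 as extraembryonic ectoderm-like (1251, 657 and 54 cells), clusters 6 and 11 as ectoplacental cone-like (597 and 610 cells) and cluster 7 as giant cell-like (458 cells). Ectoplacental cone markers summed to 4526 and 5795 CPM in clusters 6 and 11. In clusters 3, 4, 5 and 7 they summed to 1250, 1955, 1108 and 2961 CPM. Some markers went the other way. Peg10, a cone marker, was lower in clusters 6 and 11 than in clusters 3, 4 and 5. Ddah1, an extraembryonic ectoderm marker, was highest in cluster 6. The naming score of cluster 6 was 0.634 for ectoplacental cone and 0.062 for giant cell. The giant cell list had 4 genes in the data, which summed to 6588 CPM in cluster 7. The placental lactogens Prl3d1 and Prl3d2 are on this list, so their presence there follows from the naming. Over all E5.5 trophoblast they had 521 and 473 CPM, while Prl2c2, also on the list, had 0.422 CPM. Prl3b1, Ctsj and Hsd3b6 are listed but were absent from the data. Since the clusters were made from other genes of the same cells, the values here are a description.

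Cdx2 and Eomes were highest in the extraembryonic ectoderm-like clusters. Cdx2 had 117, 57.0 and 160 CPM in clusters 3, 4 and 5, against 2.29, 15.8 and 1.62 CPM in clusters 6, 11 and 7. Eomes had 849, 690.0 and 927 CPM in clusters 3, 4 and 5, against 161, 235 and 199.6 in clusters 6, 11 and 7. Msx1, low throughout, had 22.8, 7.65 and 22.2 CPM, against 2.64, 1.86 and 2.83 in the same order. Elf5 was more even, with 637, 681 and 714 CPM in clusters 3, 4 and 5, 459 and 503 in clusters 6 and 11, and 256 in cluster 7.

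Gata2, Ascl2 and Tfap2c showed the reverse. Gata2 had 22.3, 36.9 and 26.6 CPM in clusters 3, 4 and 5, against 476, 241 and 667 in clusters 6, 11 and 7. Ascl2 had 5.15, 46.8 and 4.43 CPM in clusters 3, 4 and 5, against 315, 424 and 117 in clusters 6, 11 and 7. Tfap2c had 239, 369 and 248 CPM in clusters 3, 4 and 5, against 939, 1024 and 788 in clusters 6, 11 and 7. Ascl2 was highest in ectoplacental cone-like cluster 11, whose top genes include Phlda2 and Gata1, and Gata2 was highest in the giant cell-like cluster.

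Hand1 was present in every E5.5 trophoblast cluster. It had 661, 1059 and 736 CPM in clusters 3, 4 and 5, 5311 and 1680.2 CPM in clusters 6 and 11, and 4332 CPM in cluster 7. It was detected in 85.2% to 100% of the cells of each cluster. Gata3 lay between 95.8 CPM in cluster 4 and 267 CPM in cluster 6.

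**Figure D4:**
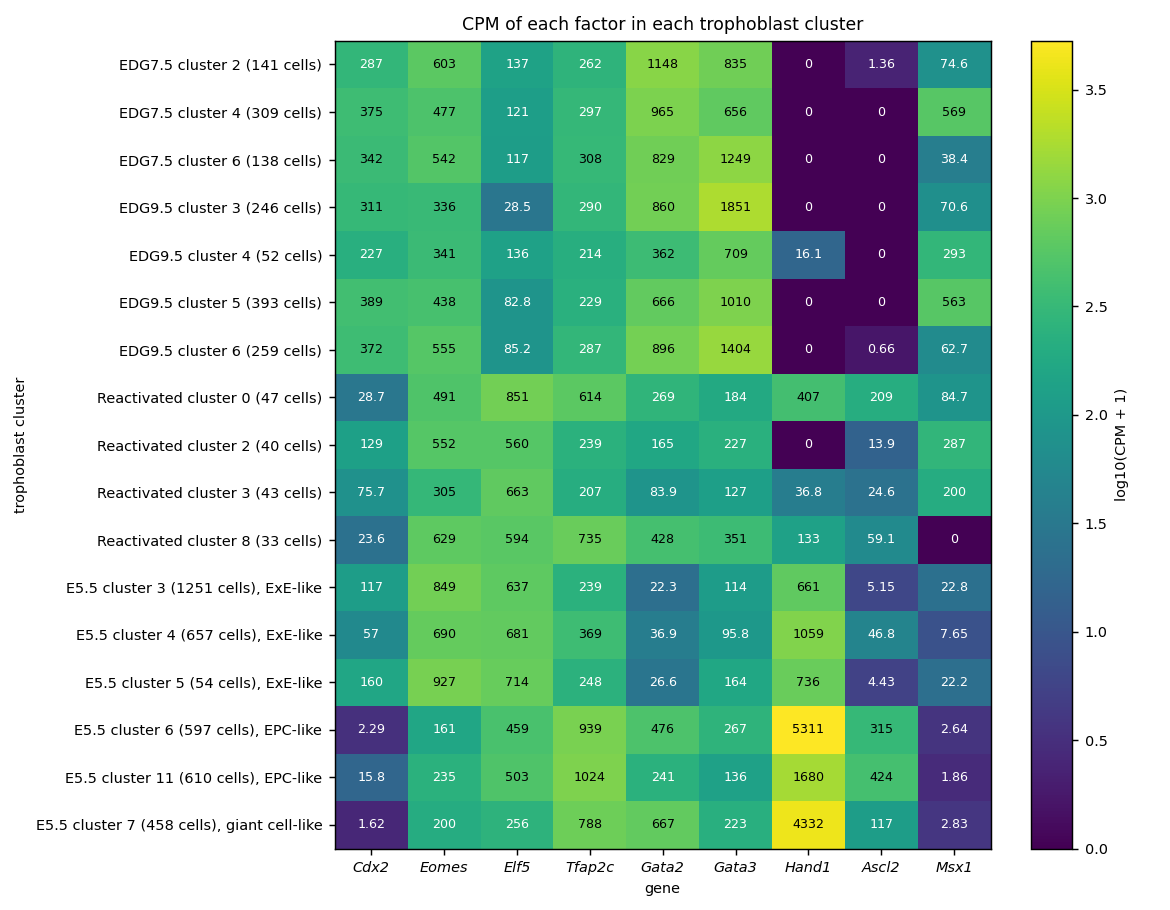
CPM of each factor (columns) in the 17 trophoblast clusters (rows, by library from EDG7.5 at the top to E5.5 at the bottom), with colour as log10(CPM + 1) and the CPM printed in each cell. ExE-like means extraembryonic ectoderm-like and EPC-like ectoplacental cone-like; in E5.5, Cdx2 is at 57.0 to 160 CPM in the ExE-like rows and at most 15.8 CPM in the others, while Gata2 is at 22.3 to 36.9 and 241 to 667 CPM.

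Co-expression at E5.5 was counted in 3497 trophoblast cells thinned to 4000 UMIs, with 130 shallower cells left out. A median of 5 of the 9 factors was detected per cell, and 0 cells had none and 0 had all 9. At this depth Hand1 was in 90.5% of cells, Elf5 in 84.9%, Tfap2c in 77.8%, Eomes in 72.3%, Gata3 in 43.7%, Gata2 in 40.3%, Ascl2 in 28.5%, Cdx2 in 18.1% and Msx1 in 4.23%. For each of the 36 pairs, the number of cells with both was set against the number that independence would give.

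Of the 36 pairs, 2 were at least 1.5-fold above expectation, 5 were at least 1.5-fold below it, and the median ratio was 0.988. A ratio cannot exceed the inverse of the larger share of the pair. Pairs with Hand1, Elf5, Tfap2c or Eomes, each in at least 72.3% of cells, could therefore not reach 1.5-fold above. The count above expectation and the median are bound by this. Cdx2 and Msx1 were found together in 45 cells, 1.68 times (1.22 to 2.24) the 26.8 expected. Gata2 and Ascl2 were found together in 641 cells, 1.59 times (1.47 to 1.72) the 403 expected, and Gata2 was in 64.2% of cells with Ascl2, against 30.8% of cells without it.

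The pairs found together least joined a factor of the extraembryonic ectoderm-like clusters with one of the others. Ascl2 and Msx1 shared 8 cells, 0.189 times (0.0818 to 0.373) expectation, Cdx2 and Gata2 shared 83 cells (0.324; 0.258 to 0.402), Cdx2 and Ascl2 shared 65 (0.359; 0.277 to 0.458), Gata2 and Msx1 shared 22 (0.368; 0.231 to 0.558) and Eomes and Ascl2 shared 471 (0.652; 0.595 to 0.714). Without thinning, Eomes and Ascl2 were inside 1.5-fold (log2 ratio -0.28). Ascl2 was in 10.3% of cells with Cdx2, against 32.6% of cells without it. Pairs with Hand1 or Elf5 lay between 0.914 and 1.07; both factors were detected in most cells.

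Inside single clusters, pairs with many shared cells had these ratios. For Gata2 and Ascl2 the ratio was 1.01, 0.967 and 1.06 in clusters 6, 7 and 11, the 3 clusters with over 100 shared cells. For Eomes and Ascl2 it was 0.973, 0.983, 0.915, 0.868 and 0.843 in clusters 3, 4, 6, 7 and 11. For Cdx2 and Gata2 it was 0.657 in cluster 3, where 27 cells had both, and 1.26 in cluster 4, where 24 had both. For Cdx2 and Msx1 it was 0.924 in cluster 3, which holds 38 of the 45 cells with both. For Cdx2 and Ascl2 it was 0.989 in cluster 11, where 27 cells had both, and 0.944 in cluster 4, where 18 had both. The remaining values rest on few cells and spread widely: Cdx2 and Ascl2 had 3.41 in cluster 7 with 4 shared cells, no cluster had over 3 cells with Ascl2 and Msx1, and none had over 10 with Gata2 and Msx1.

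**Figure D5:**
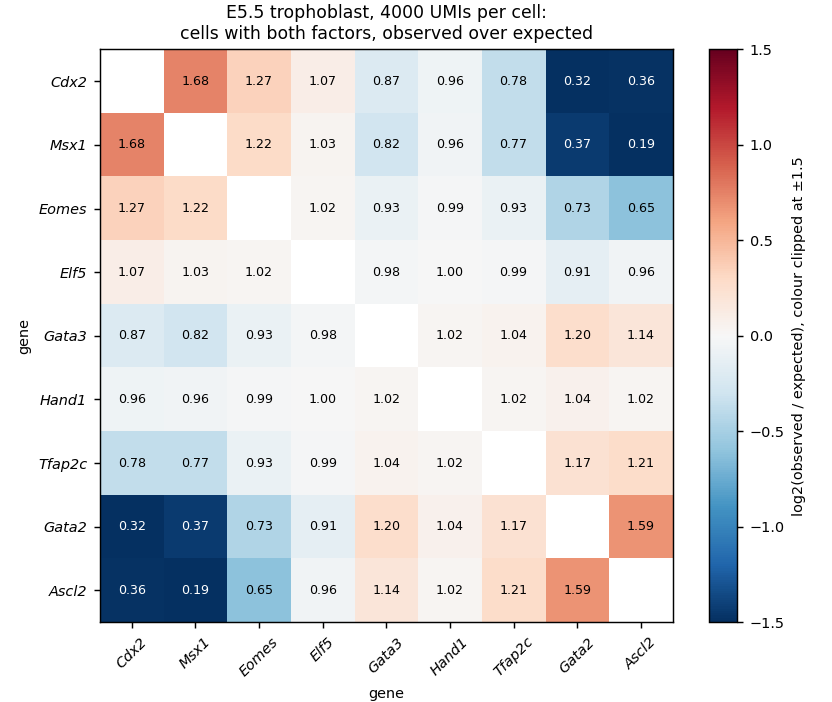
Observed over expected number of E5.5 trophoblast cells in which both factors of a pair were detected, in 3497 cells thinned to 4000 UMIs; colour is the log2 ratio, clipped at 1.5, and the ratio is printed. Cdx2 with Msx1 (1.68) and Gata2 with Ascl2 (1.59) stand above 1, and Cdx2 or Msx1 with Gata2 or Ascl2 lie between 0.189 and 0.368.

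Across the 12 sums of 3 lineages in 4 libraries, the level of each factor was compared with 3873 genes that reached 100 CPM, as a Pearson correlation of log2(CPM + 10). The 12 sums share libraries and lineages, so r is a description. The genes most like Cdx2 were Wipf1 (r = 0.990) and Perp (0.988), and Perp and Errfi1 were also most like Gata2 (0.972 for both) and Gata3 (0.978 for both). Elf5 was most like Irx3 (0.990) and S100a6 (0.984), Hand1 most like Cald1 (0.983) and Cdh5 (0.960), and Ascl2 most like Ldoc1 (0.945) and Itga7 (0.930). Msx1 was most like Crip1 (0.985) and Slc39a2 (0.969). Eomes had Prep (0.934) and Id2 (0.908), and Tfap2c had Slc38a4 (0.903) and Id2 (0.899). Among the factors themselves, Cdx2 and Gata3 (0.99), Gata2 and Gata3 (0.98), Cdx2 and Gata2 (0.97) and Cdx2 and Msx1 (0.90) were most alike, Hand1 and Ascl2 had 0.88, and Ascl2 and Msx1 least (-0.05).

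Other genes of the trophoblast network were read from 7 lists in the trophoblast sums. For Reactivated over EDG9.5, 9.85% of all genes were past 2-fold higher and 11.4% lower. These shares were 11.4% and 8.24% for E5.5 over EDG9.5, and 4.9% and 3.02% for E5.5 over Reactivated. The lists are short, so a count of 1 or 2 genes is not read as a result about a list. Of the list of differentiation genes, 5 of 7 compared were past 2-fold higher in Reactivated than in EDG9.5, 8 of 11 in E5.5 than in EDG9.5 and 6 of 11 in E5.5 than in Reactivated, and none was lower. Cited2, a transcriptional co-regulator, had 88.0 CPM in EDG7.5 and 133 in EDG9.5, then 754 in Reactivated and 453 in E5.5. The imprinted growth restrainer Phlda2 had 1.82 CPM in EDG7.5 and 0.445 in EDG9.5, then 116 in Reactivated and 1033 in E5.5. Of the stem state partners, 4 of 11 were higher and 1 lower in Reactivated than in EDG9.5, and 5 and 2 in E5.5 than in EDG9.5. The helix-loop-helix inhibitor Id2 had 1065 CPM in EDG7.5 and 1102 in EDG9.5, then 2292 in Reactivated and 1129 in E5.5, so that it was highest in Reactivated. The chromatin organiser Satb1 had 319 CPM in EDG7.5 and 219 in EDG9.5, then 577 in Reactivated and 854 in E5.5.

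Of the genes upstream of trophectoderm fate, 2 of 10 were lower in Reactivated than in EDG9.5 and none higher. Of all genes, 11.4% were lower and 9.85% higher. Tead1, a DNA-binding partner of the YAP coactivator, had 308 CPM in EDG7.5 and 331 in EDG9.5, then 70.8 in Reactivated and 86.0 in E5.5. Tead4, of the same list and mentioned after its values were seen, had 93.4 CPM in EDG7.5 and 91.8 in EDG9.5. Its level was 90.4 CPM in Reactivated and 154 in E5.5, so Tead4 was not lower there. Klf5, a zinc finger factor of the blastocyst, had 623 CPM in EDG7.5 and 719 in EDG9.5, then 162 in Reactivated and 105 in E5.5. Among signals and receptors of the stem state, 1 of 8 was higher and 1 lower in Reactivated, near the shares of all genes. The FGF receptor Fgfr2 had 360.1 CPM in EDG7.5 and 318 in EDG9.5, then 189.9 in Reactivated and 173 in E5.5. Dusp6, a feedback phosphatase of that pathway, had 366 CPM in EDG7.5 and 431 in EDG9.5, then 391 in Reactivated and 61.6 in E5.5, with the low value in E5.5 alone. Of the helix-loop-helix partners and inhibitors, 2 of 8 were higher and 1 lower in Reactivated, beside the same 9.85% and 11.4% of all genes. Bhlhe40, a repressor of this class, had 344 CPM in EDG7.5 and 499.6 in EDG9.5, then 40.2 in Reactivated and 22.4 in E5.5.

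Of the family relatives of the 9 factors, 1 of 8 compared was higher and 5 were lower in E5.5 than in EDG9.5. Of all genes, 11.4% were higher and 8.24% lower. The ETS gene Elf3 had 685 CPM in EDG7.5 and 587 in EDG9.5, then 393 in Reactivated and 104 in E5.5. The AP-2 gene Tfap2a had 325 CPM in EDG7.5 and 235 in EDG9.5, then 229.6 in Reactivated and 68.0 in E5.5. Both were lowest in E5.5. Msx2, a paralogue of Msx1, had 47.3 CPM in EDG7.5 and 78.5 in EDG9.5, then 9.04 in Reactivated and 4.70 in E5.5. Of the 7 genes related to MSX signalling, 2 of 5 compared were higher and 1 was lower in Reactivated than in EDG9.5. Of all genes, 9.85% were higher and 11.4% lower. Id3, a target of BMP signals, had 45.5 CPM in EDG7.5 and 33.4 in EDG9.5, then 93.4 in Reactivated and 16.0 in E5.5.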

How the data were processed

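Single-cell RNA of whole embryos was measured in 4 libraries made with the BD Rhapsody system, 1 per stage, grouped by their labelled stage. The deposited values are whole-number counts per gene and cell barcode. Per the submitters' processing notes, the tools were STAR 2.7.1a, featureCounts 1.6.4 with Subread, and UMI-tools 1.0.1, and the build was mm10. The counts were read as UMIs because UMI-tools is named. The annotation, strand setting and barcode filter were not given in the sources used here.

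Cells with at least 1000 UMIs, 500 genes and under 25% mitochondrial counts were kept, and Scrublet doublets (2 to 283 per library) were removed. Each library was clustered with scanpy 1.11.5 (2000 variable genes, 30 components, 15 neighbours, Leiden resolution 1) without the 9 factors. A cluster took the lineage whose marker list led by 0.5 in mean log2 level, with at least 3 markers at 20 CPM; no cluster stayed unnamed. UMIs were summed per lineage and library. Intervals were exact Poisson for levels, exact binomial for ratios of levels and Clopper-Pearson for shares of cells. For pairs of factors they were exact Poisson intervals of the cells with both, divided by the expected number held fixed. All of them cover counting error of UMIs or cells only. Depth ranged from 3569 to 14287.5 median UMIs per cell over the 12 lineage sums. A count of 0 was given a limit of 3 counts over the class. Promoters were scanned in RefSeq sequences of GRCm38.p6. The counting was tested on simulated sums drawn with counting error only, so that test could not cover spread between cells.

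With 1 library per stage no test was made. The named genes were all 9 factors, the 2 genes most like each across the 12 sums, and the 2 genes of each network list with the highest mean trophoblast level. The factors and lists were chosen with earlier results of these data known. Alternatives changed the cell filters, doublet removal, clustering, the total (TMM factors from edgeR 4.0.16), the added CPM, thinning and the UMI minimum. In the marker lists, Plet1 was read as 1600029D21Rik.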

Additional observations from a re-analysis of the deposited data

Results flagged for a closer look

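In 4 cases a factor was past 2-fold higher in one lineage and past 2-fold lower in another for the same pair of libraries. With 1 library per stage these differences between lineages were not tested, and they are given as values.

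Between E5.5 and EDG9.5, the Eomes log2 ratio was -1.30 in epiblast and 3.09 in endoderm, a difference of -4.39 for epiblast minus endoderm. For Tfap2c the same pair gave 1.16 in trophoblast and -4.12 in epiblast, a difference of 5.27 for trophoblast minus epiblast. For Msx1 it gave -3.72 in trophoblast and 1.09 in epiblast, a difference of -4.81 for trophoblast minus epiblast. Between E5.5 and Reactivated, Msx1 gave -2.98 in trophoblast and 1.44 in endoderm, a difference of -4.41 for trophoblast minus endoderm. The Msx1 levels behind the endoderm value are low, at 19.4 CPM in E5.5 and 0.859 CPM in Reactivated. With 50 CPM added, the epiblast Eomes ratio was -0.83, the epiblast Msx1 ratio 0.37 and the endoderm Msx1 ratio 0.45, all inside 2-fold. With cells thinned to 1000 UMIs, the epiblast Msx1 ratio was 0.95 and the trophoblast Tfap2c ratio 0.97. The Tfap2c ratio in epiblast stayed past 2-fold under all 14 alternatives, between -5.24 and -2.52. They include a lower UMI minimum that kept the same cells and no UMI minimum, which could not move it.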

How the results depend on the processing

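All 179 recomputed counts of factors or pairs past their threshold stayed within 1.5 times the reported count. Of the ratios between lineages and between stages in trophoblast, 1444 recomputed values kept their side of the threshold and 7 crossed it; of the pair values 355 kept it and 5 crossed it. For the ratios between stages in epiblast and endoderm, recomputed as an addition made after seeing the data, 817 kept it, 30 passed it anew and 21 no longer did. None of these values changed direction while called. Some alternatives could not move a value. The minimum of 500 UMIs with 250 genes kept the same cells, so it could not move the counts either. It covers 103 of the ratios first named, 61 of the epiblast and endoderm ones and 36 of the pair values. Taking away the minimum of UMIs left the ratios of genes already compared unchanged, which covers 103 and 61 values. Tfap2c in trophoblast, E5.5 over EDG9.5, had a log2 ratio of 0.97 after thinning to 1000 UMIs, against 1.16 unthinned, and Ascl2, E5.5 over Reactivated, had 1.09 against 0.69. Tfap2c therefore sits at the 2-fold line in that comparison. With 50 CPM added, Cdx2 (0.96) and Eomes (0.95) in E5.5 trophoblast over endoderm, and Ascl2 in EDG7.5 and EDG9.5 trophoblast over epiblast, were inside 2-fold; a larger added value pulls every ratio towards 0 by construction. Without thinning, the Eomes and Ascl2 pair was inside 1.5-fold, with a log2 ratio of -0.28. Thinned to 2000 UMIs, 10 pairs were past 1.5-fold, 2 above and 8 below, the added ones being Cdx2 and Tfap2c (-0.83), Eomes and Gata2 (-0.81) and Gata3 and Msx1 (-0.79). No paired analysis was possible because each stage has 1 library, and leaving one out would leave no value. Depth limits the ratios over 1 UMI of Ascl2, whose interval runs from 70.8 to 15881, and the pairs with few shared cells in single clusters.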

Other observations

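Among relatives of the 9 factors, Gata6, a GATA factor known for primitive endoderm, was chosen for mention after its values were seen. In trophoblast it had 264 CPM in EDG7.5 and 245 in EDG9.5, then 7.53 in Reactivated and 2.23 in E5.5. In endoderm it had 875 CPM in EDG7.5 and 853 in EDG9.5, then 384 in Reactivated and 326 in E5.5. Gata6 was thus well above the epiblast level (36.1 CPM in EDG7.5 and 35.4 in EDG9.5) in trophoblast of both EDG libraries, and near it in the later ones, with 6.61 CPM in Reactivated epiblast and 2.85 in E5.5 epiblast. Esrrb, an orphan nuclear receptor of stem cells, was also chosen after its values were seen. It had 10.9 CPM in EDG7.5 and 7.78 in EDG9.5 trophoblast, then 45.7 in Reactivated and 123 in E5.5, while its epiblast level was 586 CPM in EDG7.5 and 603 in EDG9.5, then 158 in Reactivated and 1.81 in E5.5.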
